A study of Triticum aestivum with 18 samples.

Results

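The comparison was between germinating seeds of 2 wheat (Triticum aestivum) varieties that had not been waterlogged, Bainong607 (BN607) and Zhoumai22 (ZM22), the most and the least waterlogging tolerant of the varieties in the study. The 6 control libraries labelled with these varieties were taken, C72_BN607 replicates 1 to 3 and C72_ZM22 replicates 1 to 3, of 18 libraries in all. The study sequenced RNA from seeds of BN607, BN207 and ZM22 after 72 h of germination, with and without waterlogging and with 3 libraries per group. By the labels the control seeds (C72) took up water for 24 h before they were germinated, the waterlogged seeds (W72) lay for 72 h in a beaker under 10 cm of water before they were germinated, and both were kept at 25 °C and 75% relative humidity with 16 h of light and 8 h of dark. By the study's methods the radicle and the coleoptile were taken off at the end of germination, so the RNA came from the rest of the seed. Both groups therefore shared the treatment, the time and the growth conditions and differed in variety. Whether the 3 libraries of a group came from separate dishes is not given in the labels. The p-values therefore measure the spread between libraries of the same group. This spread was pooled over the control and waterlogged libraries of BN607 and ZM22, which were fitted together. The question was which genes already differed between the tolerant and the sensitive variety when no waterlogging was applied.

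In a germinating cereal grain, gibberellin from the embryo induces the aleurone layer to secrete alpha-amylases and proteases that dissolve the starchy endosperm, and the sugars and amino acids released feed the dividing and elongating cells of the root and shoot. Bread wheat is hexaploid, so most genes exist as similar copies (homoeologues) on the A, B and D chromosomes of 1 homoeologous group. All expression levels were measured on the assembly of a single other variety, Chinese Spring (IWGSC RefSeq v1.0). A locus that is missing or diverged in BN607 or ZM22 therefore gives few or no reads and cannot be told apart from a silent one.

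The 6 libraries held 92560761 to 104754434 estimated counts, and 42043 to 44914 genes reached 1 FPKM (fragments scaled to exon length and library size) in C72_BN607, against 35724 to 42887 in C72_ZM22. C72_ZM22 replicate 3 stood apart from its group. On log2(FPKM + 1) over all expressed genes its correlation was 0.932 to 0.943 with the C72_BN607 libraries, and 0.847 and 0.874 with C72_ZM22 replicates 1 and 2. At the tested genes of chromosome 1B below 240 Mb, where the varieties differed most, it was nearer to the other ZM22 libraries. Its median log2(FPKM + 1) there was 0.641, somewhat above their 0.457 and 0.484 and far below the 2.44 to 2.67 of C72_BN607. The labelled tissue was seed. Of 11 aleurone genes, 10 or 11 reached 1 FPKM in every library, while of 102 starchy endosperm storage protein genes 2 to 4 did so in the C72_BN607 libraries, against 47, 0 and 0 in C72_ZM22 replicates 1, 2 and 3.

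Of 94141 genes, 44163 reached 1 FPKM in at least 3 of the 6 libraries and were tested. By edgeR's quasi-likelihood test at a Benjamini-Hochberg adjusted p under 0.05, 826 genes were higher in C72_BN607 than in C72_ZM22 (1.87% of those tested) and 519 were lower (1.18%). The median log2 fold change over all tested genes was 0.05. The groups did not overlap at any of the 826 genes and at 517 of the 519, while over all tested genes C72_BN607 lay wholly above C72_ZM22 at 25.9% and wholly below at 9.05%. These were mostly large differences. Only 87 of the higher and 99 of the lower genes differed by less than 4-fold, and 352 of the higher genes were at or below 0.1 FPKM in every C72_ZM22 library. The counts depended on the libraries: without C72_ZM22 replicate 3, 1651 genes were higher and 2060 lower, and without any other single control library 582 to 614 were higher and 261 to 323 lower. DESeq2 called 1496 higher and 2497 lower. An unadjusted p under 0.05 was reached by 7459 genes. Fold changes are given on the log2 scale as BN607 over ZM22 with their SE, and a second, higher p after an adjusted p is the highest over up to 20 alternative analyses, given where the gene did not pass in all of them.

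The genes that were higher in C72_BN607 were most concentrated on chromosome 1B. Lower genes were found on every chromosome, from 0.191% of tested genes on 7D to 2.07% on 3B. Chromosome 1B held 335 of the genes that were higher in C72_BN607 (17% of 1973 tested) and 40 that were lower (2.03%). Chromosome 3B had 77 higher and 47 lower genes (3.39% and 2.07%), and chromosome 1D had 47 and 12 (2.45% and 0.625%). In the opposite direction, chromosome 1A had 6 higher and 34 lower genes, and chromosome 2B had 25 and 48. Chromosome 3D had the lowest share of higher genes, with 5 of 2260 tested, and chromosome 7D the lowest share of lower genes, with 4 of 2094.

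**Figure D1:**
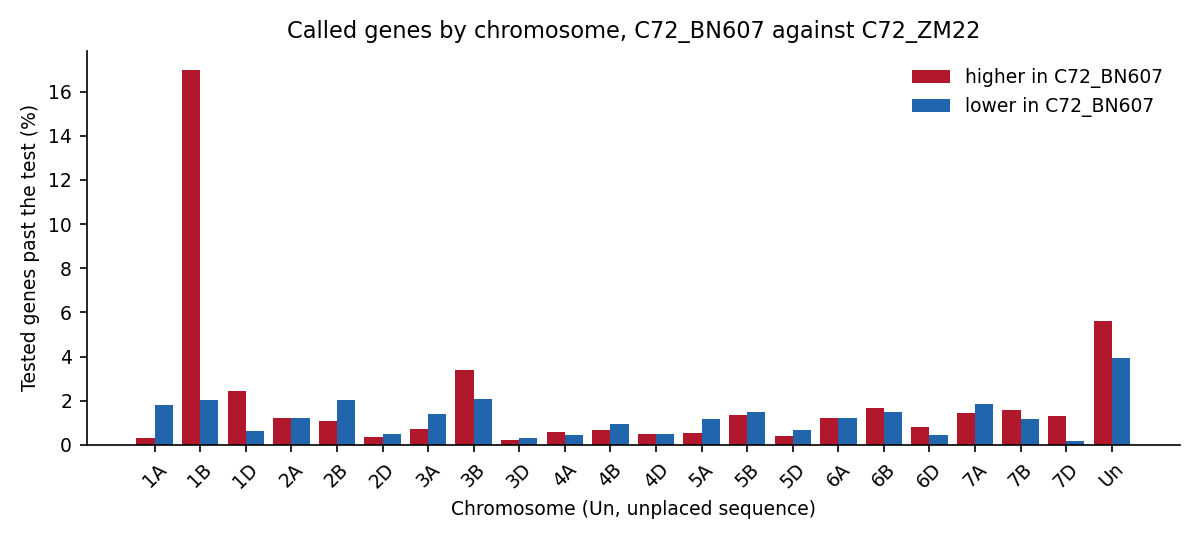
Share of tested genes past the test (edgeR, adjusted p under 0.05) on each chromosome, in percent on the y axis, with genes higher in C72_BN607 in red and genes lower in C72_BN607 in blue. Chromosome 1B stands out with 17% higher, and unplaced sequence follows with 5.63%.

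Within chromosome 1B the genes that were higher in C72_BN607 formed a dense run from the start of the chromosome to about 240 Mb. Of 511 tested genes in this segment 291 were higher in C72_BN607 (56.9%, against 1.23% of the 43652 tested genes elsewhere) and 6 were lower (1.17%, against 1.18%). The segment was chosen after the values were seen, so these shares are a description. Its median log2 fold change was 3.21, with quartiles of 1.88 and 5.61, and 460 of the 511 genes lay wholly above C72_ZM22 in C72_BN607. In each of the first 10 windows of 20 Mb, between 42.6% and 71.1% of the tested genes were called. Across all 639 windows of the genome with at least 20 tested genes the median was 1.15%, and only 15 windows passed 20%.

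The level of the 1B segment separated the varieties in every library. Its median log2(FPKM + 1) was 2.44, 2.67 and 2.58 in C72_BN607, against 0.46, 0.48 and 0.64 in C72_ZM22. C72_ZM22 replicate 3 was thus on the side of its own variety. Of the 511 genes, 496 to 498 reached 1 FPKM in the C72_BN607 libraries, against 165 to 196 in the C72_ZM22 libraries. The remaining variety lay nearer to BN607, at 2.07, 2.25 and 2.37 in C72_BN207. Of the 291 genes higher in C72_BN607, 256 had a mean in C72_BN207 nearer to that of C72_BN607 than to that of C72_ZM22. Without C72_ZM22 replicate 3 the segment had 314 higher and 12 lower genes (61.4% higher, median log2 fold change 3.18). Elsewhere 1337 genes were then higher and 2048 lower, which raised the shares outside the segment to 3.06% and 4.69%.

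**Figure D2:**
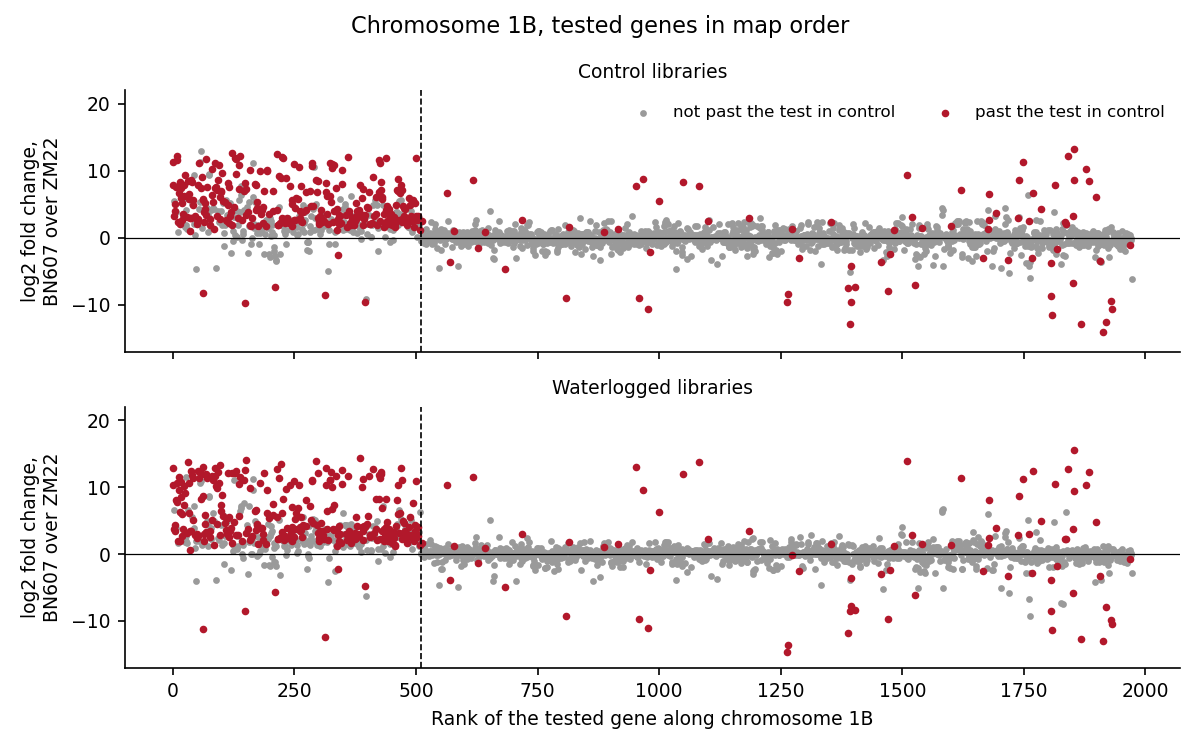
Log2 fold change of BN607 over ZM22 (y axis) for the 1973 tested genes of chromosome 1B, in map order (x axis, rank), for control libraries above and waterlogged libraries below. Red points passed the test in the control libraries, and the dashed line marks the end of the 511 genes of the first segment, where the points drop to a median of 0.03.

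The dense run ended near 240 Mb, but its edge was not sharp at the level of single genes. In the window from 240 to 260 Mb, 1 of 25 tested genes was higher in C72_BN607. The last gene called within it was TraesCS1B02G151700 (chr1B:237374033-237376619), annotated as TATA-box-binding protein 1, a general transcription factor, with 7.44, 8.68 and 8.41 FPKM in C72_BN607, against 2.74, 2.98 and 2.74 FPKM in C72_ZM22. The next tested gene, TraesCS1B02G151900, had 4.21, 5.02 and 4.31 FPKM in C72_BN607, against 2.41, 4.03 and 3.70 FPKM in C72_ZM22 and did not pass (edgeR adjusted p = 0.871), although the groups did not overlap. A gene a little further on, TraesCS1B02G152100 (chr1B:242238826-242248874), was called, with 14.3, 16.2 and 17 FPKM in C72_BN607, against 1.55, 1.19 and 4.13 FPKM in C72_ZM22. Of the 1462 tested genes on the rest of the chromosome 44 were higher in C72_BN607 and 34 were lower. The median over these genes was 0.03.

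Among the called genes of the segment with an informative description, the most abundant was a dehydroascorbate reductase, which regenerates the antioxidant ascorbate. This gene, TraesCS1B02G059100 (chr1B:41738766-41745027), had 306, 208 and 214 FPKM in C72_BN607, against 4.69, 6.66 and 14.3 FPKM in C72_ZM22. Every C72_BN607 library was far above every C72_ZM22 library (4.59 ± 0.44 on the log2 scale, edgeR adjusted p = 0.000472). A histone H2A gene, TraesCS1B02G048900, encoding a core protein of chromatin, had 77.4, 238 and 248 FPKM in C72_BN607, against 1.07, 0.766 and 2.04 FPKM in C72_ZM22 (6.88 ± 1.14 on the log2 scale, edgeR adjusted p = 0.00734). An R2R3-MYB gene, TraesCS1B02G055200, a member of a family of transcription factors, had 66.9, 78.9 and 66.7 FPKM in C72_BN607, against 0.483, 1.47 and 4.45 FPKM in C72_ZM22 (4.84 ± 1.03 on the log2 scale, edgeR adjusted p = 0.0302, 0.15 at most over the alternatives).

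Housekeeping functions were also represented in the segment. The proteasome subunit gene TraesCS1B02G141900, part of the complex that degrades ubiquitin-tagged proteins, had 56.4, 57.8 and 62.6 FPKM in C72_BN607, against 7.21, 8.08 and 12.7 FPKM in C72_ZM22 (2.37 ± 0.22 on the log2 scale, edgeR adjusted p = 0.000472). The protein disulfide isomerase-like gene TraesCS1B02G126100, of a family that folds secreted proteins, had 69.5, 70.2 and 78.3 FPKM in C72_BN607, against 16.4, 13.8 and 13.5 FPKM in C72_ZM22 (1.97 ± 0.28 on the log2 scale, edgeR adjusted p = 0.00285). For the ribosomal protein gene TraesCS1B02G146100 (40S S7) the levels were 47.2, 52.4 and 56.0 FPKM in C72_BN607, against 0.974, 1.71 and 3.80 FPKM in C72_ZM22 (4.33 ± 0.62 on the log2 scale, edgeR adjusted p = 0.00318). The groups were widely separated at these 3 genes, with C72_ZM22 replicate 3 on the side of its own variety.

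Some loci of the segment were all but unexpressed in C72_ZM22. The defensin gene TraesCS1B02G017700, for a small antimicrobial protein, had 27.7, 45.6 and 39.9 FPKM in C72_BN607, against 0.110, 0 and 0 FPKM in C72_ZM22. The O-methyltransferase gene TraesCS1B02G021000 had 26.9, 58.3 and 39.4 FPKM in C72_BN607, against 0.110, 0.0580 and 0.0802 FPKM in C72_ZM22, and the patatin gene TraesCS1B02G077500, of a family of lipid hydrolases, had 35.3, 48.7 and 35.9 FPKM in C72_BN607, against 0.0645, 0.0794 and 0.220 FPKM in C72_ZM22. The C72_BN607 libraries were all above the C72_ZM22 libraries at these 3 loci (edgeR adjusted p = 0.00836 for the defensin, 0.00891 (0.13 at most over the alternatives) for the O-methyltransferase and 0.00308 for the patatin).

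A cluster of genes for subtilisin-chymotrypsin inhibitors, which block serine proteases in the grain, lay close together in the same region. The copy TraesCS1B02G035100 (chr1B:16693069-16693803) had 55.7, 32.8 and 23.3 FPKM in C72_BN607, against 0.394, 0.653 and 0.487 FPKM in C72_ZM22 (5.86 ± 1.12 on the log2 scale, edgeR adjusted p = 0.0162, 0.091 at most over the alternatives). The copy TraesCS1B02G034100 had 13.6, 12.1 and 10.0 FPKM in C72_BN607, against 0.0553, 0.0517 and 0.0501 FPKM in C72_ZM22 (edgeR adjusted p = 0.017 (0.098 at most over the alternatives)). A further copy, TraesCS1B02G034200, had 37.4, 5.77 and 3.83 FPKM in C72_BN607, against 0 FPKM in every library of C72_ZM22: the spread within C72_BN607 was wide and the gene did not pass the test (edgeR adjusted p = 0.117). The most abundant inhibitor of this type, TraesCS3D02G094200 on chromosome 3D, had 572, 667 and 430.2 FPKM in C72_BN607, against 342, 345 and 404 FPKM in C72_ZM22, and it did not pass (edgeR adjusted p = 0.831).

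The exceptions in the segment were 6 genes that were lower in C72_BN607, and none of them had an informative description. The highest of them, TraesCS1B02G087200 (chr1B:80841027-80850213), had 0.191, 0.0948 and 0.169 FPKM in C72_BN607, against 27.7, 18.6 and 12.1 FPKM in C72_ZM22. Among the 10 most abundant genes of C72_BN607 was also a metallothionein gene of this segment, TraesCS1B02G042200, which encodes a metal-binding protein and had 4239, 2847 and 4348 FPKM in C72_BN607, against 38.3, 106 and 421 FPKM in C72_ZM22. The groups did not overlap, yet the levels within C72_ZM22 spread widely and it did not pass the test (edgeR adjusted p = 0.129). The metallothionein gene on chromosome 1D, TraesCS1D02G034800, had 6779, 6348 and 7314 FPKM in C72_BN607, against 456, 1686 and 5902 FPKM in C72_ZM22, and it did not pass either (edgeR adjusted p = 0.589).

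The homoeologous copies of the 1B genes did not follow them. In 93 sets with the same description at exactly 1 locus on each of 1A, 1B and 1D, all tested and with the B copy in the segment, 55 of the B copies were higher in C72_BN607. No copy on 1A was called in these sets. The median log2 fold change was 2.81 for the B copies, -0.16 for the A copies and -0.19 for the D copies, beside medians of -0.05 and 0.00 over all tested genes of chromosomes 1A and 1D. The B copy made up a median of 33.1% of the summed FPKM of the set in C72_BN607, against 6.31% in C72_ZM22. Summed over the 3 copies, the median difference was 0.57 on the log2(FPKM + 1) scale, with quartiles of 0.27 and 0.92. The sets rest on descriptions and not on alignments.

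Only 2 D copies in these sets were called, and both were lower in C72_BN607. One, TraesCS1D02G069700, annotated as a nuclear receptor corepressor, had 0.362, 0.383 and 0.481 FPKM in C72_BN607, against 8.87, 4.31 and 7.34 FPKM in C72_ZM22 (-4.39 ± 0.77 on the log2 scale, edgeR adjusted p = 0.0101, 0.066 at most over the alternatives). Its B copy TraesCS1B02G086600 had 4.75, 6.07 and 5.66 FPKM in C72_BN607, against 0.934, 0.687 and 3.49 FPKM in C72_ZM22, and this B copy did not pass the test (edgeR adjusted p = 0.239). The other, TraesCS1D02G111700, annotated as R1 protein, had 7.87, 9.92 and 11.5 FPKM in C72_BN607, against 15.3, 14.7 and 16.3 FPKM in C72_ZM22 (-0.99 ± 0.23 on the log2 scale, edgeR adjusted p = 0.0449, 0.35 at most over the alternatives).

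Shorter runs of called genes were found at the end of chromosome 1D, at the end of 7D and in the middle of 3B, and these were also chosen after the values were seen. In the last 20-Mb window of 1D, 45 of 97 tested genes were higher in C72_BN607 and none was lower, within chr1D:484390264-495235053. The window at the end of 7D had 20 higher genes of 75 tested, within chr7D:631757010-635583502, and the window from 500 to 520 Mb of 3B had 13 of 51. No gene was lower in any of these 3 windows. At each of these 45, 20 and 13 genes the mean of C72_BN207 was nearer to C72_BN607 than to C72_ZM22. This was not so over the genome: over all higher genes outside the 1B segment C72_BN207 was nearer to C72_BN607 at 221 and to C72_ZM22 at 314, and at the 16 higher genes in the first 40 Mb of 3B at 4 and 12.

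The 1D run contained the 2 genes with the lowest adjusted p among those with an informative description and a mean of at least 5 FPKM. A mitochondrial outer membrane porin, the channel through which metabolites cross this membrane, was encoded by TraesCS1D02G450600 (chr1D:492890894-492896682) and had 16.0, 17.5 and 14.7 FPKM in C72_BN607, against 0.155, 0.175 and 0.293 FPKM in C72_ZM22 (5.96 ± 0.32 on the log2 scale, edgeR adjusted p = 3.54e-05). The neighbouring TraesCS1D02G450300 (chr1D:492639729-492643754), for the mitochondrial protease FtsH4, had 12.3, 12.1 and 11.4 FPKM in C72_BN607, against 0.527, 0.458 and 0.786 FPKM in C72_ZM22 (4.04 ± 0.24 on the log2 scale, edgeR adjusted p = 5.15e-05). The replicates of a variety were close to each other at both genes, and C72_ZM22 replicate 3 was low like the others. A gene for subunit C of the vacuolar proton pump, TraesCS1D02G449200, had 16.2, 14.8 and 15 FPKM in C72_BN607, against 1.41, 1.92 and 1.61 FPKM in C72_ZM22 (2.89 ± 0.25 on the log2 scale, edgeR adjusted p = 0.000314), and the most abundant called gene of the run, the histone deacetylase gene TraesCS1D02G454400, had 63.3, 109 and 112 FPKM in C72_BN607, against 5.88, 8.87 and 9.32 FPKM in C72_ZM22 (3.23 ± 0.58 on the log2 scale, edgeR adjusted p = 0.0118, 0.14 at most over the alternatives).

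In the 7D run the most abundant called gene was TraesCS7D02G550700 (chr7D:634684262-634689665), annotated as the cell elongation protein DIMINUTO, an enzyme of brassinosteroid synthesis. It had 48.6, 36.8 and 33.1 FPKM in C72_BN607, against 0.771, 1.45 and 3.42 FPKM in C72_ZM22 (4.17 ± 0.57 on the log2 scale, edgeR adjusted p = 0.00247). The gene for an alternative splicing regulator, TraesCS7D02G542900, had 14.0, 15.2 and 12.5 FPKM in C72_BN607, against 0.0216, 0 and 0.0182 FPKM in C72_ZM22 and was all but silent in ZM22. In the 3B run an NADP-dependent malic enzyme gene, TraesCS3B02G320200, which links malate to pyruvate, had 6.47, 9.31 and 7.92 FPKM in C72_BN607, against 0.0558, 0.0602 and 0.187 FPKM in C72_ZM22 (6.01 ± 0.94 on the log2 scale, edgeR adjusted p = 0.00538).

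Of the other higher genes with a low adjusted p, some were outside these runs and some in the 1B segment. The gene TraesCS3B02G147000 on 3B (chr3B:137321682-137325483), described only as a biostress-resistance-related protein, had 32.3, 27.7 and 27.6 FPKM in C72_BN607, against 2.06, 2.51 and 2.35 FPKM in C72_ZM22 (3.34 ± 0.23 on the log2 scale, edgeR adjusted p = 0.000143). C72_BN207, at 2.47 to 2.69 FPKM, was close to C72_ZM22 here. In the 1B segment a mitogen-activated protein kinase gene, TraesCS1B02G104900, of a family that relays stress and growth signals, had 12.9, 13.7 and 14.1 FPKM in C72_BN607, against 1.19, 1.55 and 1.65 FPKM in C72_ZM22 (2.89 ± 0.24 on the log2 scale, edgeR adjusted p = 0.000295). The gene TraesCS1B02G149500, for a prolyl 4-hydroxylase, an enzyme that in plants modifies cell wall proteins, had 19.4, 16.6 and 15.5 FPKM in C72_BN607, against 1.88, 1.38 and 2.60 FPKM in C72_ZM22 (2.85 ± 0.24 on the log2 scale, edgeR adjusted p = 0.00031). TraesCS1B02G120300, for FolD, an enzyme of folate metabolism, and TraesCS1B02G135000, for an mRNA cap methyltransferase, were higher by 3.29 ± 0.22 and 3.48 ± 0.22 on the log2 scale (SE, edgeR adjusted p = 0.000125 and 9.46e-05).

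**Figure D3:**
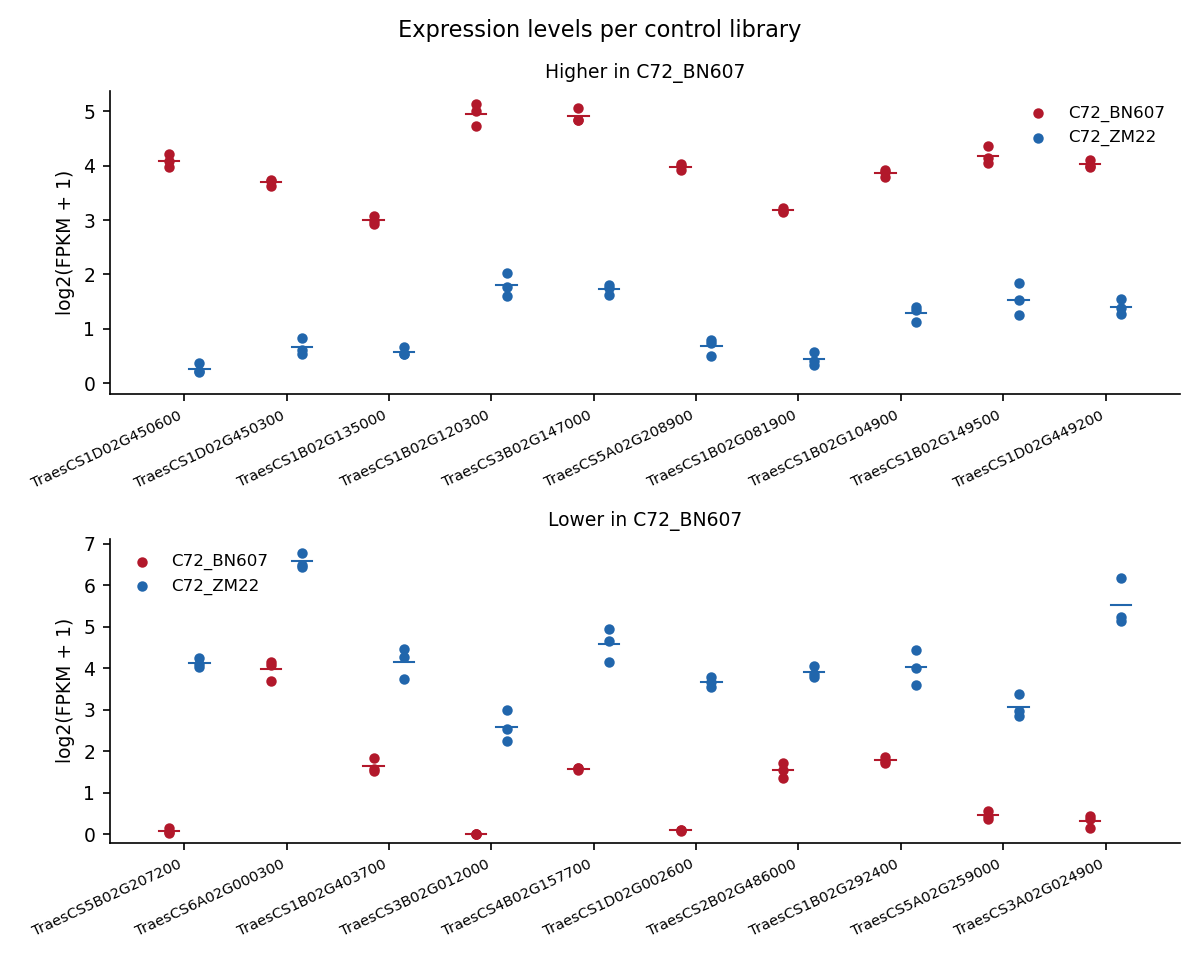
Expression level per control library, log2(FPKM + 1) on the y axis, for 10 genes in each direction. These had the lowest adjusted p among called genes with an informative description and a mean of at least 5 FPKM in the higher group. Each point is a library, C72_BN607 in red at the left and C72_ZM22 in blue at the right, and each line is the mean of 3 libraries; the groups are separate at every gene.

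Genes that were lower in C72_BN607 formed no dense run of this kind. Of the 15 windows with over 20% of genes called, 2 had more lower than higher genes, the start of 3B with 8 higher and 10 lower and 7B from 640 to 660 Mb with 5 higher and 6 lower. The SKP1 gene TraesCS6A02G000300 on 6A (chr6A:286171-288047), a core subunit of SCF ubiquitin ligases, had 16.0, 11.9 and 16.8 FPKM in C72_BN607, against 86.8, 89.4 and 109 FPKM in C72_ZM22 (-2.98 ± 0.28 on the log2 scale, edgeR adjusted p = 0.000472). Its C72_BN207 level, 90.3 to 94.0 FPKM, was close to that of C72_ZM22. The cystathionine gamma-synthase gene TraesCS4B02G157700 on 4B, for an enzyme of methionine synthesis, had 1.95, 2.01 and 2.06 FPKM in C72_BN607, against 16.9, 24.4 and 30.0 FPKM in C72_ZM22 (-3.86 ± 0.39 on the log2 scale, edgeR adjusted p = 0.000603). On 3A the gene TraesCS3A02G024900, described as a histidine-rich calcium-binding protein, had 0.369, 0.108 and 0.299 FPKM in C72_BN607, against 71.6, 36.9 and 34.3 FPKM in C72_ZM22 (-7.83 ± 0.90 on the log2 scale, edgeR adjusted p = 0.00105).

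Further lower genes of this set had separate roles. TraesCS1B02G403700 on 1B, for subunit 6 of the complex that inserts proteins into the endoplasmic reticulum membrane, had 1.86, 1.96 and 2.60 FPKM in C72_BN607, against 18.3, 12.5 and 21.1 FPKM in C72_ZM22 (-3.32 ± 0.32 on the log2 scale, edgeR adjusted p = 0.000477). The endosomal sorting gene TraesCS1D02G002600 on 1D had 0.0657, 0.0738 and 0.0668 FPKM in C72_BN607, against 11.8, 10.6 and 12.9 FPKM in C72_ZM22, and it was close to silent in C72_BN607 (edgeR adjusted p = 0.000609). The Shaggy-related protein kinase gene TraesCS5A02G259000 on 5A, of a family that acts in hormone signalling, had 0.488, 0.291 and 0.351 FPKM in C72_BN607, against 6.26, 6.88 and 9.40 FPKM in C72_ZM22 (-4.59 ± 0.52 on the log2 scale, edgeR adjusted p = 0.001). For the peptidyl-prolyl isomerase gene TraesCS1B02G292400 on 1B, whose protein assists folding, the levels were 2.29, 2.43 and 2.63 FPKM in C72_BN607, against 11.2, 15.1 and 20.9 FPKM in C72_ZM22 (-2.97 ± 0.33 on the log2 scale, edgeR adjusted p = 0.000974). The gene TraesCS3B02G012000 on 3B (chr3B:5405970-5406674), described as Fhb1-1, had 0 FPKM in every library of C72_BN607, against 4.83, 3.75 and 6.94 FPKM in C72_ZM22, and it was at least 160.0-fold lower in C72_BN607, taking a floor of 3 counts per library (edgeR adjusted p = 0.000587).

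In a few sets of homoeologues, copies were called in opposite directions. There were 3563 sets of 3 homoeologous loci with the same description, and in 2029 of them all copies were tested. Of these 2029 sets 112 had a called copy. In 4 of them another copy was called in the opposite direction, and in none were 2 copies called in the same direction. The aspartyl aminopeptidase genes, whose enzyme trims acidic residues from peptides, were such a set. The 5A copy TraesCS5A02G208900 had 14.1, 15 and 15.2 FPKM in C72_BN607, against 0.408, 0.678 and 0.735 FPKM in C72_ZM22 (4.28 ± 0.30 on the log2 scale, edgeR adjusted p = 0.000158). The 5B copy TraesCS5B02G207200 showed the reverse pattern, with 0.105, 0.0474 and 0.0303 FPKM in C72_BN607, against 18.2, 15.3 and 16.1 FPKM in C72_ZM22 (-8.30 ± 0.66 on the log2 scale, edgeR adjusted p = 0.000227). The 5D copy TraesCS5D02G215200 had 18.7, 22.3 and 19.7 FPKM in C72_BN607, against 20.9, 18.1 and 17.7 FPKM in C72_ZM22, and the groups overlapped.

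The gar2 genes, named after a nucleolar protein of fission yeast, behaved likewise. The 2A copy TraesCS2A02G464300 had 18.2, 27.9 and 25.9 FPKM in C72_BN607, against 4.35, 4.17 and 4.38 FPKM in C72_ZM22 (2.14 ± 0.39 on the log2 scale, edgeR adjusted p = 0.0124, 0.14 at most over the alternatives), and the 2B copy TraesCS2B02G486000 had 1.58, 1.93 and 2.29 FPKM in C72_BN607, against 13.7, 12.8 and 15.6 FPKM in C72_ZM22 (-3.18 ± 0.33 on the log2 scale, edgeR adjusted p = 0.000642). The copy on 2D, TraesCS2D02G465200, with 20.6, 33.6 and 31.8 FPKM in C72_BN607, against 18.9, 15.5 and 18.0 FPKM in C72_ZM22, did not pass the test (edgeR adjusted p = 0.561). In the set for a Paf1 domain protein, a factor of transcription elongation, the 3A copy TraesCS3A02G009400 was lower (-4.92 ± 0.41 on the log2 scale, edgeR adjusted p = 0.000301) and the 3B copy TraesCS3B02G012200 was higher in C72_BN607 (1.44 ± 0.26 on the log2 scale, edgeR adjusted p = 0.0129, 0.12 at most over the alternatives). In the set for N-acetylglucosaminyltransferase I, which acts on glycoproteins, the 6A copy TraesCS6A02G419100 was lower (-6.0 ± 1.05 on the log2 scale, edgeR adjusted p = 0.0103, 0.066 at most over the alternatives) and the 6D copy TraesCS6D02G407500 was higher (1.59 ± 0.27 on the log2 scale, edgeR adjusted p = 0.00905, 0.098 at most over the alternatives). Reads of near-identical copies may have been split by the counting, so the division among copies is less certain than their sum.

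Loci with a nearly complete difference were listed by their level alone. At 408 loci every C72_BN607 library reached 1 FPKM and every C72_ZM22 library was at or below 0.1 FPKM, and at 173 loci the reverse held. These numbers are a description, since the levels chose the loci. Of the 408 loci 240 were on B chromosomes, 82 on A and 59 on D, with 109 in the 1B segment and 44 on 3B. Of the 173 loci 80 were on B chromosomes, 67 on A and 15 on D. At 5 FPKM instead of 1 FPKM in the expressing variety the numbers were 104 and 35.

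The waterlogged libraries, which had not been used to choose the loci, could be compared with this division. All 3 W72_BN607 libraries lay above all 3 W72_ZM22 libraries at 384 of the 408 loci (against 7.76% of all tested genes), and W72_ZM22 stayed at or below 0.1 FPKM in all libraries at 359. Of the 173 loci, W72_BN607 lay wholly below W72_ZM22 at 157 (against 8.41% of all tested genes). BN207 was divided: in C72_BN207, 136 of the 408 loci reached 1 FPKM in all libraries and 165 were at or below 0.1 FPKM in all, while of the 173 loci 110 and 29 did so.

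The loci expressed in BN607 and silent in ZM22 included genes of RNA processing, transport and chromatin. On 1B the cyclic phosphodiesterase gene TraesCS1B02G351000 had 31.1, 18.5 and 20.8 FPKM in C72_BN607, against 0, 0.0411 and 0.0399 FPKM in C72_ZM22. A gene for subunit 5 of the transcription factor IIH, TraesCS1B02G033100 (chr1B:16214960-16215274), had 15.2, 15.2 and 15.1 FPKM in C72_BN607, against 0 FPKM in every library of C72_ZM22. C72_BN207 had at most 0.113 FPKM at this locus. For a subunit C gene of the V-type proton ATPase on 7A, TraesCS7A02G285700, the levels were 10.6, 11.2 and 10.0 FPKM in C72_BN607, against 0, 0.0413 and 0.0201 FPKM in C72_ZM22, and C72_BN207 was at 0. The UHRF2-type ubiquitin ligase gene TraesCS1B02G007900, whose protein binds chromatin in mammals, had 7.91, 15.2 and 11.6 FPKM in C72_BN607, against 0, 0.0767 and 0.0832 FPKM in C72_ZM22. The histone H2A gene TraesCS7D02G520000 on 7D had 19.1, 20.6 and 4.49 FPKM in C72_BN607, against 0, 0.0489 and 0 FPKM in C72_ZM22.

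The loci expressed in ZM22 and silent in BN607 included several enzymes. An alpha-amylase gene on 4D, TraesCS4D02G284400 (chr4D:455693376-455695374), had 0.0374, 0 and 0 FPKM in C72_BN607, against 29.4, 10.9 and 16.6 FPKM in C72_ZM22. The polyamine oxidase gene TraesCS7D02G375700 on 7D, for an enzyme that releases hydrogen peroxide, had 0.0657, 0 and 0.0846 FPKM in C72_BN607, against 27.8, 10.3 and 26.8 FPKM in C72_ZM22. On 1A the glutathione S-transferase gene TraesCS1A02G186600, of a family that detoxifies by conjugation, had 0.0685, 0.0365 and 0.0364 FPKM in C72_BN607, against 23.4, 5.05 and 3.63 FPKM in C72_ZM22. The levels of a drought responsive element binding factor gene on 7B, TraesCS7B02G028700, were 0.0808, 0.0319 and 0 FPKM in C72_BN607, against 12.2, 8.60 and 8.84 FPKM in C72_ZM22. The pathogen-related protein gene TraesCS1B02G466200 on 1B and the antimicrobial peptide gene TraesCS2B02G622400 on 2B were at 0 in every C72_BN607 library, with 7.23 to 44.2 FPKM and 1.13 to 25.5 FPKM in C72_ZM22.

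Gene lists made from the descriptions were then examined, with calls adjusted over all 44163 genes, of which 3.05% were called in either direction. The 41 lists held 2702 tested genes, of which 44 were higher and 12 lower in C72_BN607, and in 23 lists no gene was called. These counts depended on C72_ZM22 replicate 3: without it 131 of the list genes were higher and 139 lower (8.40% of all genes being called), and 6 lists had no call. In the cell division, photosynthesis, alternative oxidase, alpha-amylase and storage protein lists the median level of C72_ZM22 replicate 3 lay within the range of C72_BN607, while those of C72_ZM22 replicates 1 and 2 lay outside it.

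Cell division genes (histones, cyclins and proteins of replication and mitosis) had the highest median log2 fold change among lists of at least 20 tested genes, at 2.11. Of 287 tested genes 273 had a positive fold change, while 52.3% of all tested genes did. Only 5 were called higher and 1 was called lower (2.09%, against 3.05% over all tested genes). The median level of the list was 3.69, 4.92 and 5.07 on log2(FPKM + 1) in C72_BN607, against 1.20, 1.26 and 3.72 in C72_ZM22. C72_ZM22 replicate 3 thus lay at the level of C72_BN607 replicate 1. Without C72_ZM22 replicate 3 the median was 3.89, and 23 genes were called higher and 1 lower. The share called over all tested genes was then 8.4%. In RNA from bulk seed tissue fewer dividing cells and less RNA per dividing cell cannot be told apart. Ribosomal protein genes had a median of 0.61 (296 tested, 2 higher, none lower, 0.676% called), and both called genes were in the 1B segment.

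Beside the H2A gene of the 1B segment, 4 histone genes of this list were higher and all were low in C72_ZM22. On 3B the core histone gene TraesCS3B02G167700 had 30.8, 75.6 and 96.2 FPKM in C72_BN607, against 0.248, 0.418 and 2.03 FPKM in C72_ZM22 (5.97 ± 1.34 on the log2 scale, edgeR adjusted p = 0.04, 0.18 at most over the alternatives). An H2B gene on unplaced sequence, TraesCSU02G169300;TraesCSU02G169400, had 2.68, 6.42 and 7.31 FPKM in C72_BN607, against 0 FPKM in every library of C72_ZM22, at least 193-fold higher in C72_BN607 with a floor of 3 counts per library (edgeR adjusted p = 0.0111 (0.1 at most over the alternatives)). On 5B the histone H1 gene TraesCS5B02G448400 had 4.66, 8.29 and 11.8 FPKM in C72_BN607, against 0, 0.173 and 0.0705 FPKM in C72_ZM22 (edgeR adjusted p = 0.0471 (0.39 at most over the alternatives)). The more abundant H1 gene next in the annotation, TraesCS5B02G448500, had 211, 371 and 322 FPKM in C72_BN607, against 29.1, 38.1 and 188 FPKM in C72_ZM22 and did not pass, and C72_ZM22 replicate 3 came close to C72_BN607 replicate 1 (edgeR adjusted p = 0.307). The other 2 called members were chosen outside the rule for named genes, to complete the count. Of these, the H2A locus TraesCS6D02G040400;TraesCS6D02G040500 on 6D had 38.9, 86.1 and 99.5 FPKM in C72_BN607, against 0.486, 0.452 and 2.11 FPKM in C72_ZM22, and the only lower member, the H1 gene TraesCS2B02G415900 on 2B, had 0.353, 0.477 and 1.32 FPKM in C72_BN607, against 40.6, 17.3 and 48.7 FPKM in C72_ZM22 (-5.93 ± 0.91 on the log2 scale, edgeR adjusted p = 0.00464, 0.075 at most over the alternatives).

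**Figure D4:**
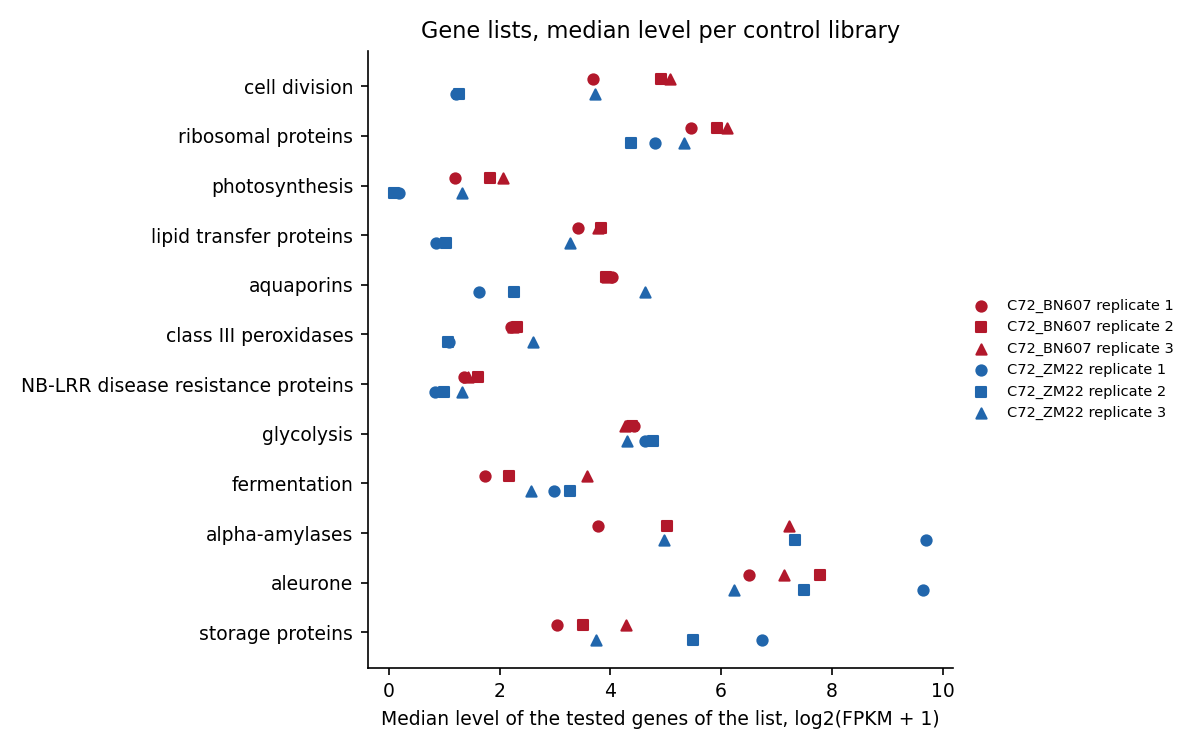
Median level of the tested genes of 12 lists, log2(FPKM + 1) on the x axis, in each control library, with C72_BN607 in red above C72_ZM22 in blue and a marker for each replicate number. C72_ZM22 replicate 3 (blue triangle) lies near the red points in most lists, as at 3.72 against 3.69 to 5.07 for cell division.

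Lists of fermentation and low oxygen had negative medians without a called gene. The 16 tested fermentation genes, which regenerate NAD in the absence of oxygen, had a median log2 fold change of -1.98, and 4 were positive. Their FPKM summed to 481, 394 and 984 in C72_BN607, against 2179, 2758 and 608.5 in C72_ZM22. Replicate 3 of C72_ZM22 was below replicate 3 of C72_BN607, so the groups overlapped. The most abundant alcohol dehydrogenase gene, TraesCS4D02G103000, had 145, 109.8 and 246 FPKM in C72_BN607, against 772, 873 and 132 FPKM in C72_ZM22. Among 12 haemoglobin and oxygen-sensing genes, haemoglobin 1 on 4B, TraesCS4B02G237300, whose protein in plants scavenges nitric oxide under low oxygen, had 25.8, 15.8 and 51.4 FPKM in C72_BN607, against 687, 381 and 39.1 FPKM in C72_ZM22 and did not pass. C72_ZM22 replicate 3 lay within the range of C72_BN607.

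A gene of respiration was lower. The alternative oxidase gene TraesCS2B02G459300 on 2B (chr2B:653745832-653748302), for a mitochondrial oxidase that bypasses the proton-pumping complexes, had 0.421, 0.516 and 0.789 FPKM in C72_BN607, against 19.1, 10.2 and 2.99 FPKM in C72_ZM22 (-4.65 ± 0.79 on the log2 scale, edgeR adjusted p = 0.0084, 0.16 at most over the alternatives). It was the only called gene of 6 tested in its list (16.7%, against 3.05% over all tested genes). In glycolysis 1 of 66 tested genes was called, the glucose-6-phosphate isomerase gene TraesCS1B02G053600 of the 1B segment, with 47.1, 41.4 and 49.0 FPKM in C72_BN607, against 6.12, 8.50 and 3.34 FPKM in C72_ZM22 (2.56 ± 0.59 on the log2 scale, edgeR adjusted p = 0.045, 0.16 at most over the alternatives). The glycolysis list had a median of -0.56, and 1.52% of its tested genes were called. Without C72_ZM22 replicate 3 the isomerase gene was not called and 10 others were called lower. The share called over all tested genes was then 8.4%.

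Among the genes of reserve mobilisation, 3.12% of alpha-amylases and 3.28% of aleurone proteases were called. None of 29 other starch breakdown genes was called, and their median log2 fold change was 0.19. Of starch synthesis genes 3.85% were called. Over all tested genes the share was 3.05%. The 32 tested alpha-amylase genes had a median log2 fold change of -1.26, and the 4D gene given above was the only one called. The most abundant, TraesCS6D02G298500, had 615, 1460 and 544 FPKM in C72_BN607, against 2562, 779 and 1230 FPKM in C72_ZM22, and the groups overlapped. The storage globulin gene TraesCS4B02G017500 had 24.6, 32.7 and 81.5 FPKM in C72_BN607, against 713, 432 and 91.0 FPKM in C72_ZM22, with C72_ZM22 replicate 3 close to C72_BN607 replicate 3. None of the 15 tested storage protein genes was called, and their median was -2.76. With the level of the cell division list as a covariate both medians turned positive, at 0.47 for the alpha-amylases and 0.35 for the storage proteins. That level was itself higher in C72_BN607 than in C72_ZM22 replicates 1 and 2, so the covariate also takes up part of the variety contrast. The medians for fermentation, alternative oxidases and glycolysis were at most -0.1, -0.86 and -0.09 over the alternatives. What lay behind the change of sign was not tested. In starch synthesis 1 of 26 tested genes was called, that of starch branching enzyme IIb, TraesCS2A02G310300, with 0.202, 0.198 and 0.433 FPKM in C72_BN607, against 1.42, 4.56 and 1.54 FPKM in C72_ZM22 (-3.55 ± 0.80 on the log2 scale, edgeR adjusted p = 0.0414, 0.43 at most over the alternatives). Among 61 aleurone protease genes 2 were higher, both for serine carboxypeptidases, TraesCS7B02G416000 on 7B and TraesCS1B02G104500 of the 1B segment. The 7B gene had 15.1, 23.2 and 2.10 FPKM in C72_BN607, against 0.0221, 0.0814 and 0 FPKM in C72_ZM22, and the 1B gene had 1.04, 1.46 and 1.57 FPKM in C72_BN607, against 0, 0 and 0.0274 FPKM in C72_ZM22.

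The list with the most calls was that of the NB-LRR disease resistance proteins, intracellular immune receptors. Of 194 tested genes 13 were higher in C72_BN607 and 1 was lower (7.22% called, against 3.05% over all genes), with a median log2 fold change of 0.30. Without C72_ZM22 replicate 3, 20 were higher and 4 lower, and 8.4% of all tested genes were called. Only 4 of the 13 were in the 1B segment. At the start of 1B, TraesCS1B02G000300 (chr1B:711793-713476) had 2.55, 5.78 and 4.77 FPKM in C72_BN607, against 0 FPKM in every library of C72_ZM22, at least 101-fold higher in C72_BN607. A pair of nearby genes on 7A was also silent in C72_ZM22. Of these, TraesCS7A02G046400 (chr7A:20982479-20983950) had 2.06, 4.22 and 3.56 FPKM in C72_BN607, against 0 FPKM in every library of C72_ZM22 and TraesCS7A02G046200 had 2.15, 3.61 and 3.29 FPKM in C72_BN607, against 0 FPKM in every library of C72_ZM22, and C72_BN207 was at 0 for both. The lower gene was TraesCS1B02G469500 near the other end of 1B, with 0 FPKM in every library of C72_BN607, against 1.14, 1.17 and 1.87 FPKM in C72_ZM22, at least 304-fold lower (edgeR adjusted p = 0.000437, floors of 3 counts per library).

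Of the receptor-like kinase and small defence protein genes 2.39% and 3.17% were called, against 3.05% over all tested genes. Of 335 receptor-like kinase genes 7 were higher and 1 was lower. Without C72_ZM22 replicate 3, 28 of them were higher and 26 lower, and 8.4% of all tested genes were called. A wall-associated kinase gene on 3D, TraesCS3D02G003900, had 8.00, 11.0 and 11.1 FPKM in C72_BN607, against 0, 0.0150 and 0 FPKM in C72_ZM22, and the kinase gene TraesCS1B02G149900 of the 1B segment had 3.38, 3.29 and 3.08 FPKM in C72_BN607, against 0 FPKM in every library of C72_ZM22. The lower one, TraesCS2B02G071100 on 2B, had 0.0121, 0 and 0 FPKM in C72_BN607, against 2.39, 3.19 and 1.21 FPKM in C72_ZM22. Of 63 small defence protein genes the 1B defensin was higher and a pathogenesis-related protein 1 gene on 2B, TraesCS2B02G442700, was lower, with 1.01, 2.75 and 0.921 FPKM in C72_BN607, against 12.1, 4.04 and 13.8 FPKM in C72_ZM22 (-2.98 ± 0.59 on the log2 scale, edgeR adjusted p = 0.0213, 0.12 at most over the alternatives). The most abundant defensin gene, TraesCS5A02G329000, had 213, 255 and 592 FPKM in C72_BN607, against 3148, 2135 and 511 FPKM in C72_ZM22, and its groups overlapped through C72_ZM22 replicate 3.

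Of 72 class III peroxidase genes, whose enzymes act on hydrogen peroxide in the cell wall, 3 were higher and 1 was lower. This was 5.56%, against 3.05% over all tested genes. The 3 higher genes were the only tested members in the 1B segment, where 56.9% of tested genes were higher. TraesCS1B02G095800 had 9.33, 9.20 and 9.62 FPKM in C72_BN607, against 0.0363, 0.120 and 0.941 FPKM in C72_ZM22 (4.51 ± 1.03 on the log2 scale, edgeR adjusted p = 0.0434, 0.18 at most over the alternatives). TraesCS1B02G142800 had 4.06, 3.88 and 3.72 FPKM in C72_BN607, against 0, 0.0177 and 0.0417 FPKM in C72_ZM22, and TraesCS1B02G115900 had 1.28, 1.41 and 1.44 FPKM in C72_BN607, against 0 FPKM in every library of C72_ZM22. The lower gene, TraesCS1D02G110600 on 1D, had 0 FPKM in every library of C72_BN607, against 5.42, 8.33 and 2.96 FPKM in C72_ZM22. Of 119 tested antioxidant genes 1.68% were called. The higher gene was the 1B dehydroascorbate reductase and the lower gene the 1A glutathione S-transferase. Without C72_ZM22 replicate 3 the list had 4 higher and 15 lower genes, and 8.4% of all tested genes were called. The most abundant ascorbate peroxidase gene, TraesCS4B02G197900, had 1876, 996 and 1561 FPKM in C72_BN607, against 559, 975 and 1004 FPKM in C72_ZM22, and its groups overlapped. In nitrogen metabolism 1 of 76 genes was called, the NADH-dependent glutamate synthase gene TraesCS3B02G299800 on 3B, with 1.51, 2.56 and 7.52 FPKM in C72_BN607, against 86.0, 82.6 and 20.4 FPKM in C72_ZM22 (-4.46 ± 1.03 on the log2 scale, edgeR adjusted p = 0.0477, 0.75 at most over the alternatives). The share called in this list was 1.32%, against 3.05% over all tested genes. Without C72_ZM22 replicate 3, 1 gene of this list was higher and 8 were lower, beside 8.4% called over all tested genes.

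Among the 100 tested genes of F-box proteins, which choose targets for ubiquitin ligases, 4 were higher and 1 was lower. This was 5%, against 3.05% over all tested genes. Of the higher genes TraesCS1B02G007300 and TraesCS1B02G061600 were in the 1B segment, with 1.08 to 2.21 FPKM in C72_BN607, against at most 0.0194 FPKM in C72_ZM22. The others were annotated as F-box only protein 7, TraesCS5A02G019800 with 3.13, 4.19 and 2.76 FPKM in C72_BN607, against 0.786, 0.248 and 0.523 FPKM in C72_ZM22, and TraesCS7A02G433300 with 2.74, 4.0 and 2.63 FPKM in C72_BN607, against 0.631, 0.381 and 0.492 FPKM in C72_ZM22. The lower gene, TraesCS2A02G129100 on 2A, named to complete the count, had 7.26, 7.41 and 8.43 FPKM in C72_BN607, against 15.2, 11.5 and 14.6 FPKM in C72_ZM22 (-1.17 ± 0.24 on the log2 scale, edgeR adjusted p = 0.0264, 0.19 at most over the alternatives).

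The 2 heat shock genes that were higher, of 54 tested, were adjacent in the 1B segment and annotated as a 70 kDa heat shock protein, a chaperone. They made up 3.7% of the tested genes of the list, against 3.05% called over all tested genes. The more abundant, TraesCS1B02G139600, had 20.5, 29.2 and 23.9 FPKM in C72_BN607, against 4.43, 5.05 and 5.08 FPKM in C72_ZM22 (2.0 ± 0.25 on the log2 scale, edgeR adjusted p = 0.00166), and TraesCS1B02G139500 had 5.49, 7.36 and 6.68 FPKM in C72_BN607, against 0.915, 0.938 and 0.804 FPKM in C72_ZM22. Of 94 cytochrome P450 genes 1 was lower (1.06%). This gene, TraesCS2B02G416700, had 0.162, 0.458 and 0.396 FPKM in C72_BN607, against 2.85, 1.29 and 1.39 FPKM in C72_ZM22. Of 18 tested photosynthesis genes 1 was higher (5.56%). It was a photosystem II protein I locus on 4B, TraesCS4B02G162400, with 2.15, 2.0 and 2.81 FPKM in C72_BN607, against 0 FPKM in every library of C72_ZM22.

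No member of the WRKY, NAC, MYB, and ERF and CBF lists of transcription factors was called, among 59, 63, 83 and 50 tested genes. Over all tested genes 3.05% were called, so few calls would be looked for in lists of this size. This depended on C72_ZM22 replicate 3. Without it 4 WRKY genes were higher and 12 lower, and 1 NAC gene was higher and 7 lower. In the MYB list 3 genes were then higher and 6 lower, and 4 ERF and CBF genes were lower. The share called over all tested genes was then 8.4%. With all 6 control libraries, none of 24 gibberellin genes, 39 genes of maturation and abscisic acid, 12 of ethylene synthesis, 36 aquaporin genes or 44 genes of expansins and xyloglucan enzymes was called, and without that library 0, 2, 2, 3 and 5 were. The R2R3-MYB gene on 1B and the drought responsive element binding factor gene on 7B, both given above, were outside these lists by the wording of their descriptions. The aquaporin list showed how C72_ZM22 was split, with median levels of 4.02, 3.91 and 3.94 on log2(FPKM + 1) in C72_BN607, against 1.62, 2.25 and 4.62 in C72_ZM22. Of the marker lists for other tissues, photosynthesis genes had summed levels of 41.4 to 107.5 FPKM in C72_BN607, against 8.33, 7.44 and 59.2 FPKM in C72_ZM22. Starchy endosperm genes summed to 6.89 to 17.7 FPKM in C72_BN607, against 530.5, 7.75 and 6.26 FPKM in C72_ZM22. The part of tissue composition in the list medians was not tested.

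The genes that the study measured by qRT-PCR and the alcohol dehydrogenase genes it singled out did not pass the test between the control groups. Of these 11 genes 10 were tested. The gene TraesCS2B02G369000, described as a predicted protein, had 144, 119 and 123 FPKM in C72_BN607, against 614, 597 and 224 FPKM in C72_ZM22, and the groups did not overlap (-2.28 ± 0.66 on the log2 scale, edgeR adjusted p = 0.12). The alcohol dehydrogenase gene TraesCS5D02G196300 had 40.2, 58.3 and 40.3 FPKM in C72_BN607, against 4.61, 9.46 and 79.2 FPKM in C72_ZM22, and TraesCS4B02G106400 had 0.360, 0.492 and 14.2 FPKM in C72_BN607, against 1.85, 1.82 and 1.95 FPKM in C72_ZM22. In both the groups overlapped. The starch synthase gene TraesCS7B02G093800 stayed below the level needed for testing, with 0.428, 0.242 and 0.314 FPKM in C72_BN607, against 2.69, 0.943 and 1.36 FPKM in C72_ZM22.

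The same contrast of varieties was measured a second time in the waterlogged libraries. In W72_BN607 against W72_ZM22, 914 genes were higher (2.07% of those tested) and 546 were lower (1.24%). The 762 genes higher under both treatments were 92.3% of those higher in the control libraries and 83.4% of those higher in the waterlogged libraries. The 379 genes lower under both were 73.0% and 69.4%. The sign was the same in both treatments for 825 of the 826 higher and 518 of the 519 lower genes, against 76.1% of all tested genes. The median log2 fold change of the 1B segment was 3.32 in the waterlogged libraries, and 310 of its genes were higher in W72_BN607.

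The 2 genes with opposite signs, both without an informative description, were TraesCS1B02G290000 on 1B and TraesCS7B02G094400 on 7B. They had log2 fold changes of 1.32 and -2.14 in the control libraries and of -0.15 and 0.81 in the waterlogged libraries, where neither passed. They are named here because of these values. In the test of the difference itself, waterlogged minus control, 1 gene passed of 44163 (0.00226%), and 510 had an unadjusted p under 0.05. By DESeq2, 28 passed. The gene, TraesCS5B02G323900 on 5B (chr5B:508260187-508260760), had no description. In the waterlogged libraries it had 1.76, 2.56 and 2.25 FPKM in W72_BN607, against 0 in all 3 W72_ZM22 libraries. In the control libraries it had 1.11, 1.85 and 1.60 FPKM in C72_BN607, against 4.27, 4.84 and 3.79 FPKM in C72_ZM22.

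**Figure D5:**
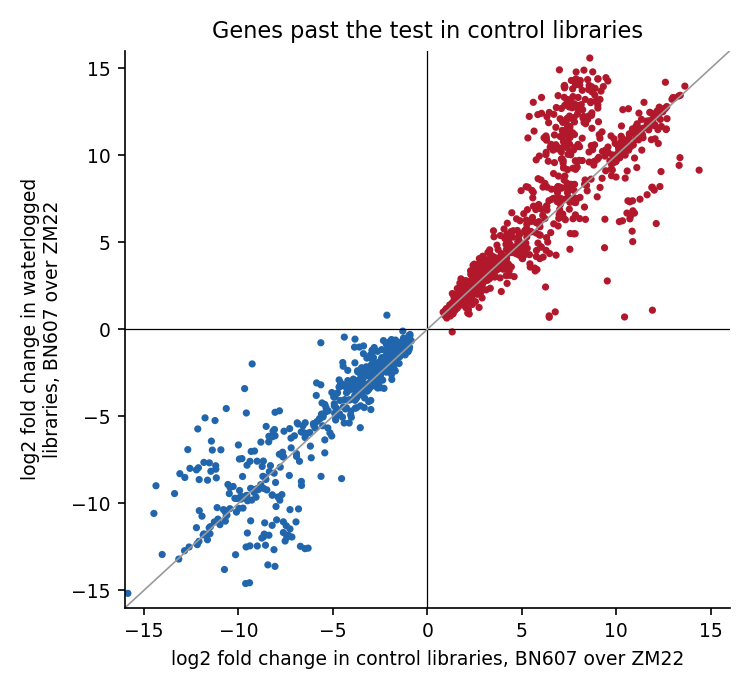
Log2 fold change of BN607 over ZM22 in the control libraries (x axis) and in the waterlogged libraries (y axis) for the 1345 genes past the test in the control libraries, red where higher and blue where lower in C72_BN607. The grey line marks equality, and 2 genes lie in the quadrants of opposite sign; values beyond about 8 belong to genes near 0 in 1 variety, where the fold change depends on the prior count.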

How the data were processed

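RNA from germinating seeds was sequenced by the study on an Illumina platform after oligo(dT) selection. The authors trimmed the reads with cutadapt and mapped them with HISAT to the IWGSC assembly RefSeq v1.0, and StringTie built transcripts for each library, which were then merged. For the versions of these tools, nothing was given in the sources used here. StringTie also gave the FPKM values that the authors deposited, 1 column per library. The deposited estimated counts were whole numbers per gene whose ratio to FPKM was nearly constant within a gene, so they appear to derive from coverage, though no source states how the authors obtained them. Counts estimated from coverage exceed the number of independent fragments, and the test was therefore repeated with counts divided by 4. Loci that the assembly added have names beginning with MSTRG, and reads of similar homoeologues may be shared between copies.

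A gene was tested if 3 or more of the 6 control libraries reached 1 FPKM, with edgeR 4.0.16 in R 4.3.3 (TMM, quasi-likelihood test, Benjamini-Hochberg adjusted p under 0.05, no fold limit). The 12 control and waterlogged libraries of BN607 and ZM22 were fitted together with 4 group means. The contrasts were BN607 minus ZM22 in each treatment and the difference between them. limma 3.58.1 on log2(FPKM + 1) and on log2(FPKM + 0.1) and DESeq2 1.42.0 served as alternatives. Input was read with the R package data.table (1.17.8), and figures were drawn with Python 3.11.15, pandas 2.3.3 and matplotlib 3.10.9. The fit was tested on simulated data. The variety comparison, the gene lists and the segments were chosen with earlier results of these data known, and 4 list patterns were corrected after the descriptions had been seen. Lists were made from the words of the deposited descriptions.

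Named genes were, in each direction, the 10 called genes with the lowest adjusted p, an informative description and a mean of at least 5 FPKM in the higher group. In each list they were up to 4 called genes of largest fold change with a mean of at least 1 FPKM and the 4 most abundant genes. The genes measured by qRT-PCR, the 10 most abundant genes of each group and the 10 most abundant loci of each kind expressed in 1 variety were added. Of these the text gives those that are informative about the comparison. A locus counted as silent at or below 0.1 FPKM in every library. Where all libraries of a group were at 0 counts, a bound on the fold was taken by setting each of them to 3 counts. These floors cover counting error only. Depth in the control libraries was 92560761 to 104754434 estimated counts.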

Additional observations from a re-analysis of the deposited data

Results flagged for a closer look

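The variety contrast differed between treatments for 1 gene, MSTRG.24530 (TraesCS5B02G323900), by the test of the difference itself. Its difference, waterlogged minus control, was 11.85 on the log2 scale (edgeR adjusted p = 0.0142). This value depends on the prior count, since all 3 W72_ZM22 libraries were at 0. The gene was low throughout, with at most 2.56 FPKM in the BN607 libraries and at most 4.84 FPKM in the ZM22 libraries. No gene passed this test with the replicate block, with a limit of 5 FPKM, without any 1 of the C72_BN607 libraries or without C72_ZM22 replicate 2.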

How the results depend on the processing

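The 826 higher and 519 lower genes moved by over 1.5 times under these alternatives. With at least 5 FPKM in 3 control libraries, 394 were higher and 204 lower, 521 were also called in the waterlogged libraries (against 1141) and 0 differed between treatments (against 1). With the level of the cell division list as a covariate 322 were lower. DESeq2 gave 1496 higher, 2497 lower, 2637 also called and 28 that differed between treatments. The study's rule (unadjusted p and 2-fold) gave 2120 and 3925. The genes that differed between treatments were 2 with all 18 libraries and 3 without W72_BN207 replicate 1. Leaving out single control libraries gave 582 to 1651 higher, 261 to 2060 lower and 0 to 2 that differed between treatments; the highest counts were without C72_ZM22 replicate 3. Higher calls were then 44.5% of all, and 37.5% by DESeq2, against 61.4%. Without the 1B loci below 240 Mb, an alternative chosen after seeing the data, 535 were higher. With 5 FPKM in the expressing variety 104 and 35 loci were expressed in C72_BN607 only and in C72_ZM22 only, and with exactly 0 in the silent variety 168 and 75. The causes of these shifts were not tested.

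The replicate numbers were not treated as pairs in the main fit. Of 18 same-number pairs, 8 had correlated deviations above 0.1 (-0.39 to 0.61). Different-number pairs were not compared, so this does not decide whether samples were paired. With the replicate block 799 were higher and 467 lower, of which 748 and 412 were also called without it, and 0 differed between treatments. With the 6 control libraries fitted alone 867 were higher and 611 lower, of which 736 and 401 were also called in the main fit. Upper quartile scaling shifted the median fold change by 0.15. Of 96 called genes examined singly, 50 passed under every alternative tried and 0 changed direction. Losses were most frequent without a C72_BN607 library or without C72_ZM22 replicate 1 or 2 (23 to 28 genes) and with all 18 libraries fitted (26 genes).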
